A study of Rattus norvegicus with 12 samples.

Results

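Cadherins and protocadherins are cell-surface proteins that hold neighbouring cells together in the presence of calcium. Their genes were followed here across cultured neural stem cells from rat spinal cord and brain, measured on Affymetrix Rat230_2 arrays, which read each transcript through a probe set, a handful of short oligonucleotides near its 3′ end. A probe set was a member when the platform annotation gave it 1 gene symbol and that symbol was Cdh followed by a number or began with Pcdh. This took 46 probe sets of 33 genes, out of 31042 probe sets and 14217 genes named by a single symbol. They comprise 16 cadherin genes, 8 protocadherin genes that stand outside the gene clusters, and 9 protocadherin genes of the alpha and beta clusters.

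The cells came from Sprague Dawley rats at postnatal day 3 to 5, with no transgene or treatment named in the labels. There were 4 groups of 3 arrays, namely differentiated spinal cord, proliferative spinal cord, differentiated brain and proliferative brain cultures. A Chinese word for differentiation, in Latin letters, marks the differentiated groups in the titles, and medium, agents and duration are not given in the sources used here. Whether replicate arrays stand for separate cultures or litters is not stated, so the spread behind the p-values below may be technical.

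All values are the deposited log2 signals, on which 1 unit is a doubling. A probe set was tested when it exceeded the 40th percentile of the array on at least 3 of the 12 arrays, a value between 5.91 and 6.41. A group with all 3 arrays under that percentile is called dim here, and a fold against a dim group is given as a lower limit, with the percentile in place of the reading. The p-value beside such a limit comes from the fit to the deposited readings. Differences come from limma fitted to all 20834 tested probe sets and all 12 arrays, and a gene was called higher or lower at a Benjamini-Hochberg adjusted p under 0.05. The probe set with the highest mean stands for its gene, so 11218 genes were tested, among them 21 members. Of these, 14 had no dim group, and 10 read above the percentile on all 12 arrays. The other 7 had a dim group, and because they passed the filter through the groups where they were bright, their presence among the tested members already leans towards a difference.

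Pairs of arrays within a group correlated at 0.93 to 0.948 over all probe sets, and pairs from different groups at 0.845 to 0.909. Among the members, replicate 1 of the proliferative spinal cord arrays was the array farthest from its group's middle value for 15 of the 21 tested genes. Replicate 3 of the proliferative brain arrays was farthest for 11 of 21. Without that brain array 10 members in place of 12 were called higher in differentiated brain cultures. Leaving out any 1 of the 6 spinal cord arrays gave 5 members in place of 6 called higher in differentiated spinal cord cultures. The lower count there ran from 8 to 10 in place of 10, and was 9 without replicate 1 of the proliferative spinal cord arrays. The neural stem cell markers Nes, Sox2, Pax6, Prom1, Vim and Fabp7 were above the percentile in at least 1 array of every group, while Hes5 was dim in all groups but differentiated brain. Because these are bulk cultures, fewer cells of a type and less RNA per cell cannot be told apart.

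Classical cadherins bind like molecules on the next cell through their outer repeats and grip the actin skeleton inside through beta-, p120- and alpha-catenin. E-cadherin, the product of Cdh1, is the classical cadherin of epithelia, and N-cadherin, the product of Cdh2, that of neuroepithelium, neurons and many mesenchymal cells. An exchange of one for the other accompanies transitions between epithelial and mesenchymal states and the closure of the neural tube. Type II cadherins sort neurons into nuclei and layers. Protocadherins have more outer repeats and do not bind catenins in the classical way. The clustered ones give neurons a surface identity, and those outside the clusters act in cell sorting, axon growth and synapse formation.

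Cdh1 was bright in the differentiated spinal cord cultures and dim in the other 3 groups, and in those same cultures Cdh2 was at its lowest, though still well above the percentile. Probe set 1386947_at, which stands for Cdh1, read 10.38, 10.29 and 10.56 in differentiated spinal cord cultures, against 1.13, 1.46 and 2.29 in proliferative ones. The brain cultures read 1.85, -0.02 and 0.56 when differentiated and 1.48, 0.81 and 2.51 when proliferative. The 3 differentiated spinal cord arrays thus stood apart from the other 9, which were all below their percentiles and in no meaningful order. Cdh1 passed the filter only through those 3 arrays, so its being tested already leans towards this difference. The Cdh1 signal was at least 16.6-fold higher in differentiated than in proliferative spinal cord cultures. It was at least 17.3-fold higher than in differentiated brain cultures. On the deposited readings the log2 changes were 8.78 (adjusted p = 4.51e-05) and 9.61 (adjusted p = 1.57e-05), and their size rests on readings under the percentile. With such readings set to the percentile they were 4.05 and 4.11. In brain both states were dim, so no fold is given (adjusted p = 0.604). The second Cdh1 probe set, 1386446_at, was dim in all 4 groups, with readings between -1.48 and 3.05, so the Cdh1 result rests on 1 probe set.

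For Cdh2, probe set 1368642_at read 10.25, 10.19 and 10.48 in differentiated spinal cord cultures, against 11.90, 11.88 and 11.55 in proliferative ones. Brain cultures read 12.56, 12.75 and 12.58 in differentiated cultures, against 12.48, 12.57 and 12.33 in proliferative ones. The spinal cord groups did not overlap, while the brain groups did. Cdh2 was lower by 1.47 ± 0.11 (SE) log2 units in the differentiated spinal cord cultures, a log2 change of -1.47 (adjusted p = 3.51e-07). Its brain difference of 0.17 was not called (adjusted p = 0.24). The difference between the responses of the tissues, spinal cord minus brain, was -1.64 log2 units (adjusted p = 3.38e-06). Cdh2 was also lower in spinal cord than in brain within each state, by 5.005-fold between differentiated cultures (adjusted p = 3.02e-09) and by 1.61-fold between proliferative cultures (adjusted p = 0.000348).

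A second Cdh2 probe set, 1387259_at, read 10.39, 10.16 and 10.07 in differentiated spinal cord cultures and 11.38, 11.36 and 11.29 in proliferative ones. Brain cultures gave 12.55, 12.44 and 12.45 in differentiated cultures and 11.81, 11.86 and 12.01 in proliferative ones. It repeated the fall in spinal cord (log2 change -1.14, adjusted p = 7.34e-07), but here the brain groups did not overlap either and the gene was called higher with differentiation (0.58, adjusted p = 0.000195). The probe sets therefore disagree on Cdh2 in brain. The remaining probe set, 1378271_at, was dim in all 4 groups.

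**Figure D1:**
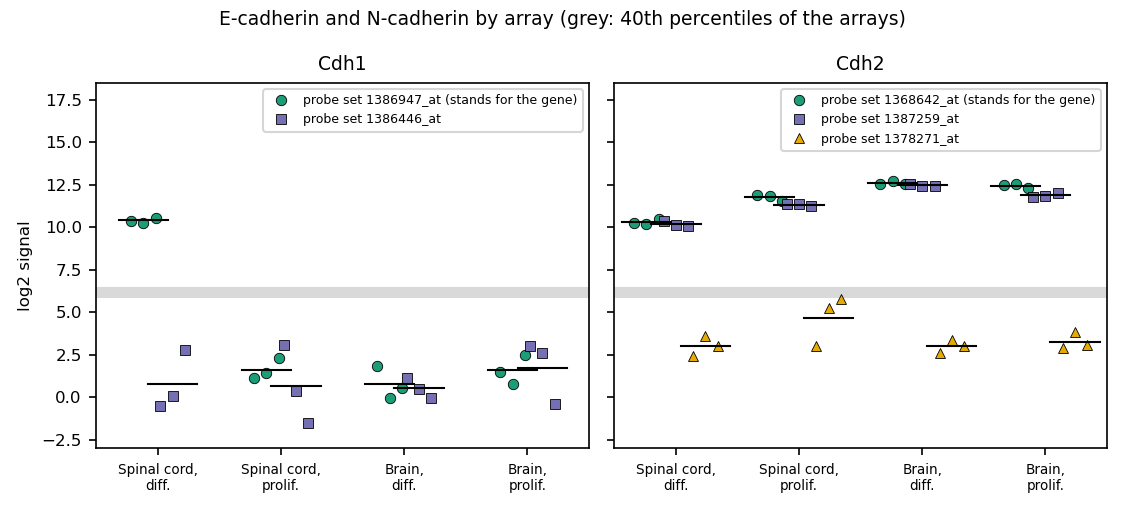
Log2 signal of every Cdh1 probe set (left) and every Cdh2 probe set (right) on each array, by group, with a line at each group's mean and a grey band over the arrays' 40th percentiles (5.91 to 6.41). Only probe set 1386947_at in differentiated spinal cord cultures, at 10.29 to 10.56, lies above the band for Cdh1, while Cdh2 probe sets 1368642_at and 1387259_at are lowest in that same group.

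Of 28 measured genes of epithelial junctions, 12 were tested. In spinal cord differentiation 5 were higher and 2 lower, where 20.9% of all tested genes were higher and 22.6% lower. The higher ones included Cxadr, an adhesion receptor of tight junctions, at least 4.84-fold, F11r, junctional adhesion molecule A, at least 4.11-fold, and Spint2, an inhibitor of membrane serine proteases, 9.49-fold. Krt18, a keratin of simple epithelia, was lower, at least 3.96-fold. Of the 28 genes 14 were dim in differentiated spinal cord, with 19 in proliferative spinal cord, 22 in differentiated brain and 18 in proliferative brain cultures. The 14 in differentiated spinal cord cultures included the defining epithelial genes Epcam, Cldn4 and Cldn7. In brain differentiation 2 of the 12 were higher and 6 lower, against 24.1% and 28.5%. Between differentiated cultures 7 of the 12 were higher in spinal cord than in brain and 1 lower, with a median log2 difference of 1.65, where 22.3% of all tested genes were higher and 22.4% lower. The difference of responses was called higher for 7 and lower for 1, with a median of 1.83, where 23.7% of all tested genes were higher and 21.2% lower. As with the members, a gene dim in some groups was tested only through the groups where it was bright.

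Transcription factors known for repressing or inducing Cdh1 were set beside these values. Of 12 measured, 9 were tested, and 1 was higher and 3 lower in differentiated spinal cord cultures, where 20.9% of all tested genes were higher and 22.6% lower. With so few genes the counts are near those shares. Zeb1, a repressor that binds the Cdh1 promoter, averaged 10.07 ± 0.03 in differentiated and 11.90 ± 0.21 in proliferative spinal cord cultures (SD, n = 3 each). That is 3.56-fold lower, with an adjusted p of 5.46e-08. Zeb2, its close relative, changed by -0.70 log2 units (adjusted p = 0.0464), and Tcf4, an E protein, by -0.47 (adjusted p = 0.000439). Prrx1, a mesenchymal homeobox factor, was 2.49-fold higher. In brain no factor was higher and 1, Twist1, was lower, while Zeb1 changed by 0.10 and was not called (adjusted p = 0.501). Between proliferative cultures 5 of the 9 were higher in spinal cord than in brain and 2 lower, against 21.2% and 22.8% of all tested genes. Between differentiated cultures 4 were higher and 2 lower, against 22.3% and 22.4%. Grhl3 and Elf3 were dim in every group but differentiated spinal cord. Snai2, Ovol1, Ovol2 and Grhl2 were among the factors not measured.

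Of 15 measured catenins and other cadherin partners, 14 were tested, with 5 higher and 3 lower in spinal cord differentiation and 6 higher and 3 lower in brain differentiation. The shares over all tested genes were 20.9% higher and 22.6% lower in spinal cord, and 24.1% and 28.5% in brain. Ctnna2, the neural alpha-catenin, was 4.09-fold lower in differentiated spinal cord cultures and 1.94-fold higher in differentiated brain cultures. Ctnnd2, a delta-catenin of neurons, was 3.47-fold lower in the differentiated spinal cord cultures and 2.32-fold higher in the differentiated brain cultures. Jup, which encodes the plakoglobin of adherens junctions and desmosomes, was higher with differentiation in both tissues, 2.54-fold in spinal cord and 1.39-fold in brain. Vcl, the actin linker vinculin, was 3.09-fold higher in differentiated spinal cord cultures and not called in brain (log2 change -0.44, adjusted p = 0.143). Ctnnb1, beta-catenin itself, was called in neither tissue (log2 changes 0.10 in spinal cord and 0.16 in brain). Among 13 tested proteases that can cut cadherins, 6 were higher and 1 lower in spinal cord differentiation, led by Mmp14, a membrane metalloprotease, at 3.62-fold. In brain differentiation 8 of these proteases were higher and 3 lower.

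Markers of non-neural cells were set beside Cdh1. For 15 fibroblast, meningeal and mural markers, the summed linear signal per array was 116760 to 133249 in differentiated spinal cord, 30692 to 59058 in proliferative spinal cord, 4894 to 5703 in differentiated brain and 4048 to 6465 in proliferative brain cultures. In spinal cord differentiation 10 of the 14 tested were higher and 1 lower, and of the 15 only Rgs5, a pericyte gene, was dim in differentiated spinal cord cultures. For 11 markers of arachnoid and epithelium-like meningeal cells, the sums were 40404 to 43626, 17474 to 20899, 13891 to 15593 and 3348 to 4266 in the same order of groups. Of those tested, 4 were higher and 2 lower in spinal cord differentiation, and Dpp4, Krt18 and Wt1 were dim in the differentiated spinal cord cultures. In brain differentiation the sum rose, but 2 of the 9 tested were higher and 5 lower. There 24.1% of all tested genes were higher and 28.5% lower. Of the 11 markers 6 were dim in differentiated brain cultures. Both sums were also higher in proliferative spinal cord than in proliferative brain cultures, where Cdh1 was dim in each. Among further lists, 0 were higher and 3 lower of 4 tested for endothelium in spinal cord differentiation. For microglia and macrophages 0 were higher and 3 lower of 8 tested, with 5 not called. Ependyma and choroid plexus markers had 1 higher and 0 lower of 6 tested, and Schwann cell markers 1 higher and 4 lower of 6. Over all tested genes 20.9% were higher and 22.6% lower in spinal cord differentiation. The part of any of these cells in the Cdh1 and Cdh2 results was not tested.

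Taking the 21 tested members together, their balance differed between the tissues. In differentiated spinal cord cultures 6 members were called higher and 10 lower, against backgrounds of 20.9% and 22.6% of all tested genes. In differentiated brain cultures 12 were called higher and 3 lower, against 24.1% and 28.5%. The median log2 change of the members was -0.88 in spinal cord, where all tested genes had a median of -0.04. In brain the members' median was 1.03, with -0.06 for all tested genes. The difference between the responses was called lower for 11 members and higher for 5, where 21.2% of all tested genes were lower and 23.7% higher. These counts describe the members that passed the filter.

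Set side by side, 6 members were lower in spinal cord and higher in brain differentiation, a combination found in 5.46% of all tested genes. They were Cdh10, Pcdh9, Pcdh10, Pcdh15, Pcdh17 and Pcdhb9. Pcdh18 alone was higher in spinal cord and lower in brain, a count of 1 in 21 that is near the 4.41% of all tested genes. Cdh11, Pcdhb19 and Pcdhb22 were higher in both tissues (7.27% of genes), and Cdh22 lower in both (8.3% of genes), although its probe sets disagree as described below. The brain call of Pcdh18, both calls of Pcdhb9 and the spinal cord call of Pcdhb22 were lost when certain single arrays were left out, as given below.

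**Figure D2:**
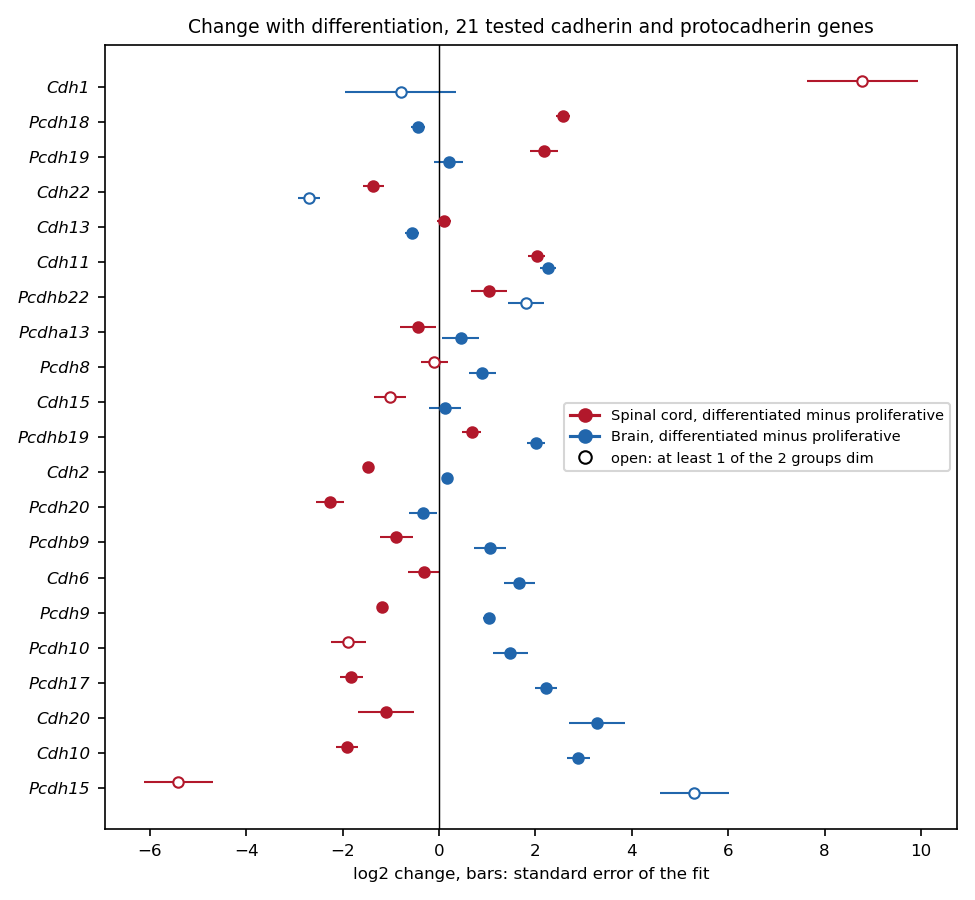
Log2 change with differentiation, with its standard error, for the 21 tested cadherin and protocadherin genes in spinal cord (red) and brain (blue). Open circles mark a comparison with at least 1 dim group, and Pcdh15, at -5.41 in spinal cord and 5.29 in brain, and Cdh1, at 8.78 in spinal cord, lie farthest from 0.

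Among the type II cadherins, Cdh11 was high everywhere and higher still after differentiation in both tissues. Cdh11, also called OB-cadherin, is known from mesenchyme, bone and meninges as well as from developing brain. It read 13.34, 13.13 and 13.35 in differentiated spinal cord cultures, against 10.79, 11.61 and 11.34 in proliferative ones. The brain readings were 12.01, 12.12 and 12.14 in differentiated cultures, against 9.63, 9.79 and 10.08 in proliferative ones. The groups did not overlap in either tissue, and the spinal cord groups were each above the brain groups of the same state. Cdh11 was 4.07-fold higher with differentiation in spinal cord (adjusted p = 8.55e-07) and 4.79-fold in brain (adjusted p = 2.59e-07). The responses of the tissues differed by -0.23 ± 0.24 log2 units (SE), which was not called (adjusted p = 0.473), or by -0.46 without replicate 1 of the proliferative spinal cord arrays (adjusted p = 0.0432). A second probe set, 1391146_at, gave the same calls except between differentiated cultures, where spinal cord exceeded brain by 2.26-fold on the first (adjusted p = 8.12e-05) and by an uncalled 1.32-fold on the second (adjusted p = 0.102).

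Cdh10 behaved the other way round in spinal cord. This type II cadherin of brain read 7.61, 6.88 and 7.17 in differentiated spinal cord cultures, against 8.92, 9.35 and 9.12 in proliferative ones. Its brain values were 9.91, 9.92 and 9.95 in differentiated cultures, against 7.55, 6.99 and 6.57 in proliferative ones. The differentiated arrays were all below the proliferative ones in spinal cord and all above them in brain. The fold was 3.76 lower in spinal cord (log2 change -1.91, adjusted p = 2.5e-05) and 7.41 higher in brain (log2 change 2.89, adjusted p = 5.06e-07), a difference of responses of -4.80 log2 units (adjusted p = 1.57e-07).

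Cdh20 and Cdh6 gave called differences with differentiation only in brain. Cdh20, a type II cadherin first known from the neural tube and neural crest of other vertebrates, read 8.10, 8.46 and 8.32 in differentiated brain cultures, against 5.77, 6.24 and 3.05 in proliferative ones. The last of these arrays, replicate 3, lay far under the other arrays. The log2 change was 3.27 with it and 2.29 without it, called both times (adjusted p = 0.000455 and 1.64e-05). In spinal cord Cdh20 read 7.30, 7.21 and 6.93 in differentiated cultures and 7.85, 8.25 and 8.64 in proliferative ones. These groups did not overlap, yet the change of -1.10 was not called (adjusted p = 0.156). It was called when the spread came from those 6 arrays alone (adjusted p = 0.00664). The responses of Cdh20 differed by -4.37 log2 units (adjusted p = 0.000885), by -3.39 without replicate 3 of the proliferative brain arrays and by -3.28 with values under the percentile set to it.

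Cdh6, or K-cadherin, known from kidney and from patterned regions of embryonic brain, read 7.34, 7.91 and 7.64 in differentiated brain cultures, against 6.26, 5.94 and 5.69 in proliferative ones. All differentiated brain arrays were above the proliferative ones, a 3.18-fold difference (adjusted p = 0.00067). In spinal cord it read 6.66, 6.59 and 7.07 in differentiated cultures, against 7.60, 7.31 and 6.38 in proliferative ones. There the groups overlapped and the change of -0.32 was not called (adjusted p = 0.448). The responses of Cdh6 differed by -1.99 log2 units (adjusted p = 0.0028).

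Cdh22, or PB-cadherin, a type II cadherin of pituitary gland and brain, has a pair of tested probe sets that oppose each other. Probe set 1368887_at, which stands for the gene, read 7.26, 7.35 and 7.44 in differentiated spinal cord cultures, against 8.59, 8.78 and 8.75 in proliferative ones. In brain it was dim in differentiated cultures at 5.49, 5.82 and 5.20, against 8.52, 8.32 and 7.75 in proliferative ones. By this probe set Cdh22 was lower with differentiation in both tissues, 2.57-fold in spinal cord (adjusted p = 0.000284) and at least 3.73-fold in brain (adjusted p = 5.96e-07).

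Probe set 1388045_a_at instead read 8.49, 8.83 and 8.56 in differentiated brain cultures, against 6.71, 6.74 and 6.46 in proliferative ones. That is 3.97-fold higher (adjusted p = 0.00117), opposite in sign to the other probe set. In spinal cord it was dim in differentiated cultures at 5.33, 5.71 and 6.05, against 6.31, 8.14 and 8.23 in proliferative ones, at least 2.46-fold lower (adjusted p = 0.00232). The fall in spinal cord was thus seen with both probe sets. The brain direction, the difference between differentiated cultures and the difference of responses turned with the choice of probe set, the last being 1.33 with the first and -3.85 with the second.

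Cdh13 and Cdh15 varied less. Cdh13, or T-cadherin, which is tied to the membrane by a lipid anchor and has no tail inside the cell, ranged from 9.16 to 9.68 over the spinal cord arrays and from 9.41 to 10.26 over the brain arrays. It was 1.47-fold lower in differentiated than in proliferative brain cultures (adjusted p = 0.00733) and not called in spinal cord (adjusted p = 0.614). Probe set 1369425_at repeated that brain call and 1373102_at did not (adjusted p = 0.0741). Cdh15, or M-cadherin of muscle precursor cells, read 5.28, 5.57 and 6.08 in differentiated spinal cord cultures, against 6.84, 6.85 and 6.30 in proliferative ones. These groups lay side by side without overlap, and the difference of at least 1.32-fold (adjusted p = 0.0248) was lost when values under the percentile were set to it (adjusted p = 0.14). It was also lost without either of replicates 1 and 2 of each spinal cord group (adjusted p 0.0601 to 0.0876). Its brain readings, 6.06 to 6.84 in differentiated and 6.09 to 6.72 in proliferative cultures, overlapped.

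All 8 protocadherin genes outside the clusters were tested, and 4 of the 6 members that were lower in spinal cord and higher in brain are among them. In spinal cord differentiation 2 were called higher and 5 lower, and in brain differentiation 5 higher and 1 lower. Over all tested genes 20.9% were higher and 22.6% lower in spinal cord, and 24.1% and 28.5% in brain. Pcdh15 and Pcdh17 fell in spinal cord and rose in brain. Pcdh18 did the reverse, though its brain call was lost when certain single arrays were left out. The promoters of these genes are shown as examples of the opposite patterns. Each is the RefSeq window of the rat build GRCr8 from 250 bases before to 50 after the gene's start, read along the gene's strand, at chr20:14824749-14825048 on the minus strand for Pcdh15, chr15:66632892-66633191 on the plus strand for Pcdh17 and chr2:135996777-135997076 on the minus strand for Pcdh18. Capitals mark matches to CACCTG or its reverse CAGGTG, the site of Snail and Zeb factors, to CAGCTG, a site of bHLH factors, and to ACAAAG or its reverse CTTTGT, the core of Sox sites. No matches overlap.
Pcdh15: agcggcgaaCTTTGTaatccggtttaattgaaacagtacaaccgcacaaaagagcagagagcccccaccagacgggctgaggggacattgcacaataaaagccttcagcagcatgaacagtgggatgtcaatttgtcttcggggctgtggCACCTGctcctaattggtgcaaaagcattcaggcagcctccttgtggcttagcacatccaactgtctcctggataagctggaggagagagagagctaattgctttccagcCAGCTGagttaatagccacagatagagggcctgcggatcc
Pcdh17: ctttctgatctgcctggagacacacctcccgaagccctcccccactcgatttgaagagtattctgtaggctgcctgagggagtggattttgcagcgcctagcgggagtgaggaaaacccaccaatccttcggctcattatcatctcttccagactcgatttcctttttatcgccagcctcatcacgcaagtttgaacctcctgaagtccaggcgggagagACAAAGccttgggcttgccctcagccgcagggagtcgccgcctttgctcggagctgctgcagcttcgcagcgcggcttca
Pcdh18: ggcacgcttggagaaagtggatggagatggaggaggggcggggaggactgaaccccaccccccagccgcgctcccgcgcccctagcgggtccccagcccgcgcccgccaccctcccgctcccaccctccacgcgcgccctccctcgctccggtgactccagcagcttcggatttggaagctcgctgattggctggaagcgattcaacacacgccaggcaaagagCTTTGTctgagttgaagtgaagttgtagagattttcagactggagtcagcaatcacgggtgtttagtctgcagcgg
Of the 33 members 21 had an entry in this promoter table, and Cdh1, Cdh2, Cdh11 and Pcdh19 were among those without. CACCTG on either strand was in 18.8% of all 33469 windows and in 1 of the 21 members, Pcdh15. CAGCTG was in 15.1% of windows and in 3 members, Pcdh15, Cdh7 and Cdh12. ACAAAG on either strand was in 18.8% of windows and in 6 members, Pcdh15, Pcdh17, Pcdh18, Pcdh8, Cdh6 and Pcdhb21. Cdh10, Pcdh9, Pcdh10 and Pcdhb9, which also fell in spinal cord and rose in brain, had windows with none of these motifs. The window of Pcdh18 held 22 CpG pairs, that of Pcdh17 held 16 and that of Pcdh15 held 7, the median of all windows being 7.0.

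Pcdh15 showed the widest difference between the responses of the tissues in this family. It is known from the tip links of inner-ear hair cells and is also a marker of oligodendrocyte precursors in rodent brain. It was dim in differentiated spinal cord cultures at 3.77, 2.99 and 4.48, against 8.51, 9.41 and 9.56 in proliferative ones. It read 8.03, 8.26 and 8.46 in differentiated brain cultures, and was dim in proliferative ones at 5.10, 2.14 and 1.62. Each tissue thus had 1 state with clear signal and 1 without, and the states were exchanged between them. The signal was at least 7.45-fold lower with differentiation in spinal cord (adjusted p = 4.72e-05) and at least 4.41-fold higher in brain (adjusted p = 4.5e-05). The responses differed by -10.71 log2 units (adjusted p = 2.58e-06), or by -5.04 with dim values set to the percentile. Within brain alone the change of Pcdh15 was then 2.14, no wider than the 2.22 of Pcdh17.

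Oligodendrocyte precursor markers moved the same way. In spinal cord differentiation 1 of 8 tested markers was higher and 6 lower, and in brain 7 were higher and none lower. Over all tested genes 20.9% were higher and 22.6% lower in spinal cord, and 24.1% and 28.5% in brain. Cspg4, which encodes the NG2 proteoglycan, was 10.8-fold lower in differentiated spinal cord cultures and 3.84-fold higher in differentiated brain cultures. Sox10, a regulator of the lineage, was 2.39-fold lower in the differentiated spinal cord cultures and 14.2-fold higher in the differentiated brain cultures. The summed linear signal of the 8 markers was 25264 to 27615 in differentiated spinal cord, 34663 to 42699 in proliferative spinal cord, 33496 to 36151 in differentiated brain and 8471 to 10116 in proliferative brain cultures, and only Olig2 in differentiated spinal cord cultures was dim. The rise in brain was not particular to precursor markers. Of 9 tested markers of mature oligodendrocytes 8 were higher in brain differentiation and 0 lower, with 0 higher and 1 lower in spinal cord. Of 10 tested astrocyte markers 8 were higher and 0 lower in brain, with 5 higher and 4 lower in spinal cord. The part of any of these cells in the protocadherin results was not tested.

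Pcdh17, which acts in axon growth and synapse assembly in mouse, read 9.21, 9.05 and 9.28 in differentiated spinal cord cultures, against 11.46, 10.59 and 10.95 in proliferative ones. Its brain readings were 10.19, 10.53 and 10.37 in differentiated cultures, against 8.12, 8.66 and 7.66 in proliferative ones. The groups were apart in both tissues, in opposite order. Pcdh17 was 3.54-fold lower with differentiation in spinal cord (adjusted p = 3.72e-05) and 4.65-fold higher in brain (adjusted p = 5.48e-06). The other Pcdh17 probe sets, 1374546_at and 1393454_at, gave the same calls, with log2 changes of -1.91 and -1.59 in spinal cord and 2.37 and 2.65 in brain.

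Pcdh9, a delta-type protocadherin of the nervous system, had the same pattern at a smaller size. It read 9.99, 9.92 and 10.22 in differentiated spinal cord cultures, against 11.34, 11.15 and 11.17 in proliferative ones. Its brain readings were 10.62, 10.63 and 10.73 in differentiated cultures, against 9.82, 9.45 and 9.64 in proliferative ones. None of these groups overlapped within a tissue, with a 2.26-fold lower signal in spinal cord (adjusted p = 3.08e-06) and a 2.04-fold higher one in brain (adjusted p = 8.26e-06). The second probe set, 1397688_at, gave both calls too.

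Pcdh10, which guides axons of the mouse forebrain, was dim in differentiated spinal cord cultures at 5.91, 6.23 and 6.30, against 8.93, 7.31 and 7.83 in proliferative ones. It read 8.22, 8.70 and 8.95 in differentiated brain cultures, against 7.47, 7.41 and 6.56 in proliferative ones. The differentiated spinal cord arrays were the lowest of all 12, and the differentiated brain arrays were above the proliferative brain ones. It was at least 3.39-fold lower in spinal cord (adjusted p = 0.00107) and 2.79-fold higher in brain (adjusted p = 0.00453).

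**Figure D3:**
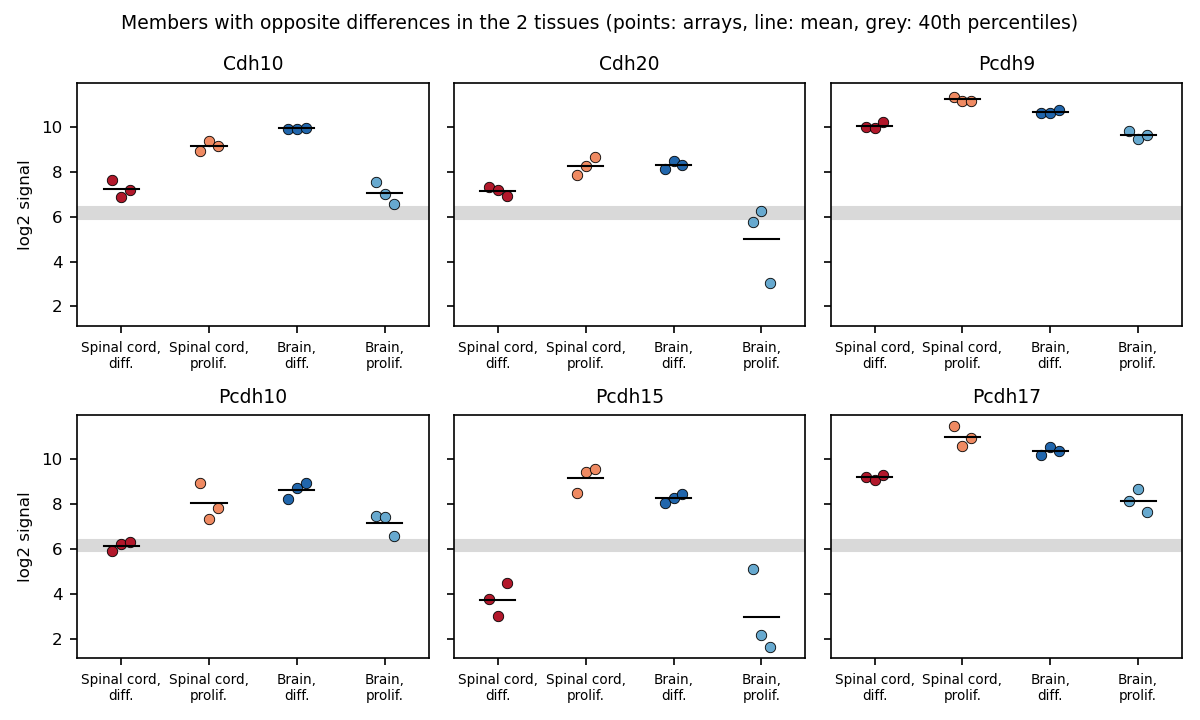
Log2 signal on each array for 6 genes whose log2 change with differentiation is negative in spinal cord and positive in brain, with a line at each group's mean and a grey band over the 40th percentiles. For Pcdh15 the 3 proliferative spinal cord arrays (8.51 to 9.56) and the 3 differentiated brain arrays (8.03 to 8.46) lie above the band and all other arrays below it, and for Cdh20 the spinal cord difference was not called.

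Pcdh20 and Pcdh8 each changed in 1 tissue. Pcdh20 read 7.75, 6.91 and 7.20 in differentiated spinal cord cultures, against 8.87, 9.97 and 9.80 in proliferative ones. Its brain values were 8.42, 8.37 and 8.24 in differentiated cultures, against 8.89, 8.99 and 8.15 in proliferative ones. The spinal cord groups were apart and the brain groups overlapped, with a 4.79-fold lower signal in spinal cord (adjusted p = 4.05e-05) and an uncalled log2 change of -0.34 in brain (adjusted p = 0.377). The responses differed by -1.92 log2 units (adjusted p = 0.00226). The second probe set, 1391208_at, gave the same calls.

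Pcdh8, called arcadlin in rat, is induced by activity in neurons and draws N-cadherin from synapses. It was a gene of the brain cultures, at 8.14, 7.76 and 8.12 in differentiated and 7.08, 7.28 and 6.97 in proliferative ones. In spinal cord it was dim in both states, with readings of 5.04 to 5.88 in differentiated and 5.31 to 5.74 in proliferative cultures. Every brain array was above every spinal cord array, and the spinal cord signal was at least 3.35-fold lower between differentiated cultures (adjusted p = 6.24e-06). The 1.86-fold rise with differentiation in brain (adjusted p = 0.0165) was lost without replicate 3 of the proliferative or replicates 1 or 3 of the differentiated brain arrays (adjusted p 0.0501 to 0.0638).

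Pcdh18 and Pcdh19 each had their highest signal in differentiated spinal cord cultures. Pcdh18, which binds the adaptor Dab1 in mouse, read 10.31, 10.41 and 10.38 in differentiated spinal cord cultures, against 7.54, 8.02 and 7.83 in proliferative ones. In brain it read 8.17, 8.08 and 8.30 in differentiated cultures, against 8.64, 8.80 and 8.46 in proliferative ones. The groups were apart in both tissues, widely in spinal cord and narrowly in brain. Pcdh18 was 5.93-fold higher in spinal cord (adjusted p = 2.83e-08) and 1.36-fold lower in brain (adjusted p = 0.0215). The brain call was lost without replicates 1 or 2 of either brain group (adjusted p 0.0538 to 0.0853).

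Pcdh19, a partner of N-cadherin whose mutation causes an epilepsy in humans, read 10.45, 10.27 and 10.72 in differentiated spinal cord cultures, against 7.71, 8.63 and 8.56 in proliferative ones. The brain arrays read 5.79, 6.62 and 6.26 when differentiated and 6.48, 5.54 and 6.05 when proliferative. The brain groups overlapped around the percentile, and every spinal cord array was above them. Pcdh19 was 4.53-fold higher with differentiation in spinal cord (adjusted p = 6.12e-05), with a log2 change of 0.20 in brain that was not called (adjusted p = 0.616). It was higher in spinal cord than in brain between differentiated cultures (log2 difference 4.26, adjusted p = 8.89e-08) and between proliferative cultures (2.27, adjusted p = 4.99e-05). Since some brain arrays were under the percentile, no fold is given, and with such values set to it the differences were 4.06 and 2.05.

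**Figure D4:**
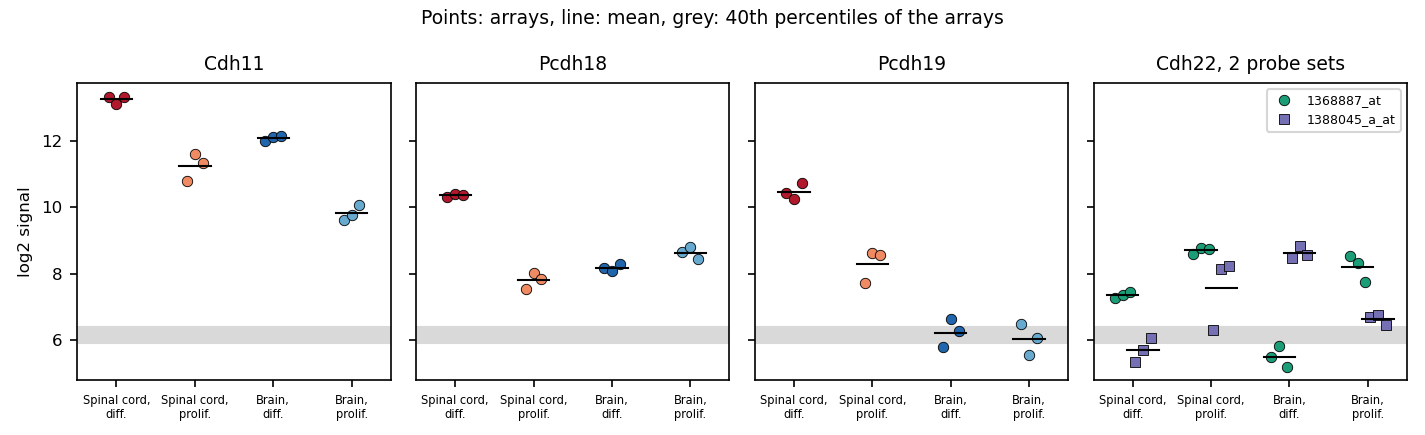
Log2 signal on each array for Cdh11, Pcdh18, Pcdh19 and both probe sets of Cdh22, with a line at each group's mean and a grey band over the 40th percentiles. Cdh11, Pcdh18 and Pcdh19 are highest in the differentiated spinal cord cultures (10.27 to 13.35), and the Cdh22 probe sets move in opposite directions between the brain states.

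The clustered protocadherins were harder to see, since 5 of the 9 genes were not tested. Pcdhb19 read 8.66, 8.47 and 8.78 in differentiated spinal cord cultures, against 7.69, 8.09 and 8.11 in proliferative ones. Brain cultures read 9.11, 9.28 and 9.44 in differentiated cultures, against 7.65, 7.19 and 6.95 in proliferative ones. The groups were apart in both tissues, in the same order. The rise was 1.60-fold in spinal cord (adjusted p = 0.0122) and 4.03-fold in brain (adjusted p = 2.08e-06), and the responses differed by -1.33 log2 units (adjusted p = 0.00145).

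Pcdhb22 read 7.13, 7.24 and 7.54 in differentiated spinal cord cultures, against 6.10, 6.27 and 6.41 in proliferative ones. In brain it read 6.77, 7.27 and 7.51 in differentiated cultures and was dim at 5.43, 6.20 and 4.50 in proliferative ones. Differentiated arrays were above proliferative ones in each tissue, by 2.05-fold in spinal cord (adjusted p = 0.0404) and at least 2.11-fold in brain (adjusted p = 0.00132). The spinal cord call was lost without any 1 of the 6 spinal cord arrays (adjusted p 0.064 to 0.121).

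Pcdhb9 read 7.05, 7.03 and 7.78 in differentiated spinal cord cultures, against 7.60, 8.37 and 8.54 in proliferative ones. In brain it read 8.11, 8.54 and 8.30 in differentiated cultures, against 7.55, 7.76 and 6.49 in proliferative ones. The spinal cord groups overlapped and the brain groups did not. Its 1.84-fold fall in spinal cord lay at the threshold (adjusted p = 0.0494) and was lost without any of 4 of the 6 spinal cord arrays (adjusted p 0.132 to 0.17). Its 2.07-fold rise in brain (adjusted p = 0.0193) was lost without replicate 3 of the proliferative arrays (adjusted p = 0.0877) or replicate 2 of the differentiated arrays (adjusted p = 0.07). Pcdha13, with readings of 5.66 to 7.54 over the 12 arrays, was called in no comparison.

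Transcripts of the alpha and gamma clusters share their last exons, and probe sets there carry several symbols, so they fall outside the members. Gamma cluster probe set 1388551_at read 12.41, 12.39 and 12.24 in differentiated and 12.46, 12.80 and 12.50 in proliferative spinal cord cultures, and 13.12, 13.11 and 13.18 in differentiated and 12.38, 12.35 and 12.44 in proliferative brain cultures. The differentiated brain arrays were the highest, with a log2 change of 0.75 in brain (adjusted p = 2.09e-05) and an uncalled -0.24 in spinal cord (adjusted p = 0.0538). Alpha cluster probe set 1390821_at read 8.98, 9.10 and 9.01 in differentiated and 9.69, 10.38 and 10.26 in proliferative spinal cord cultures, and 9.75, 9.70 and 9.70 in differentiated and 9.85, 9.65 and 8.95 in proliferative brain cultures. Here the differentiated spinal cord arrays were low, with a log2 change of -1.08 (adjusted p = 0.00108), and the brain change of 0.23 was not called (adjusted p = 0.393).

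Comparing the tissues within a state showed the members changing sides. Between proliferative cultures 11 of the 21 were called higher in spinal cord than in brain and 4 lower, against backgrounds of 21.2% and 22.8%. Between differentiated cultures 5 were called higher in spinal cord and 11 lower, against 22.3% and 22.4%. The members' median log2 difference, spinal cord minus brain, was 0.88 in proliferative and -0.83 in differentiated cultures. These comparisons use the same arrays as the ones above. Pcdh15 was at least 8.28-fold higher in spinal cord between proliferative cultures and at least 3.96-fold lower between differentiated cultures. Pcdh17 was 7.22-fold higher between proliferative and 2.27-fold lower between differentiated cultures, and Cdh10 was 4.26-fold higher and 6.52-fold lower in the same comparisons. Cdh2 and Pcdh8 were lower in spinal cord in both states, and Cdh11 and Pcdh19 higher in both. The lower count between differentiated cultures was 7 without replicate 2 of the differentiated spinal cord arrays. The higher count between proliferative cultures ran from 9 to 12 with each array left out in turn. There Pcdh20 and Pcdhb9 also lost their call under median centring and under quantile normalization.

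The 12 members that were not tested were Cdh3, Cdh7, Cdh8, Cdh12, Cdh16, Cdh17, Cdh23, Pcdha12, Pcdhb6, Pcdhb12, Pcdhb17 and Pcdhb21. Their readings lay between -1.84 and 6.66, and none was above the percentile on 3 arrays. Among them Cdh3, or P-cadherin of basal epithelia, is a neighbour of Cdh1 on chromosome 19, and it read 6.27, 5.99 and 1.60 in the differentiated spinal cord cultures in which Cdh1 was bright. Cdh12, a type II cadherin of brain, is a neighbour of Cdh10 on chromosome 2 and was dim in all 4 groups. Pcdh8, Pcdh9, Pcdh17 and Pcdh20 all lie on chromosome 15, and of these Pcdh9 and Pcdh17 moved in opposite directions in the tissues, Pcdh20 fell in spinal cord and Pcdh8 was above the percentile only in brain.

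Of 19 measured relatives that have cadherin repeats but fall outside the member rule, 11 were tested. In spinal cord differentiation 4 were higher and 1 lower, where 20.9% of all tested genes were higher and 22.6% lower. In brain differentiation 5 were higher and 2 lower, against 24.1% and 28.5%. Fat4, a giant cadherin of planar polarity, was 2.69-fold higher in differentiated spinal cord cultures. Celsr3, a cadherin of axon tracts, was at least 1.495-fold lower there. In differentiated brain cultures Ret, a receptor kinase with cadherin-like repeats, was at least 2.26-fold higher and Cdhr2, a protocadherin of microvilli, 3.70-fold higher.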

How the data were processed

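RNA of cultured cells was measured on 12 arrays, 3 for each of 4 groups taken from the sample titles. The authors deposited 1 log2 signal for each probe set and array, made with MAS5 and the affy package per the submitters' processing notes, which give no version. The 57 control probe sets were left out. Gene names come from the platform annotation, where 20826 probe sets have 1 symbol, 436 have more and 9780 have none, and 31 of the 33 member genes matched a current RefSeq gene by Entrez identifier.

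Differences were fitted with limma 3.58.1 in R 4.3.3 (lmFit, then eBayes with a trend, 1 mean per group, 8 residual degrees of freedom), and p-values were adjusted over all 20834 tested probe sets by the Benjamini-Hochberg method. Tests are two-sided. The fit was tested on simulated data. The number of arrays limits the precision, and MAS5 readings under the 40th percentile carry little order. Values in every array are given for Cdh1, Cdh2 and each tested member called with an absolute log2 change of at least 1 between 2 groups; from each list of other genes the text names mainly those with the largest called changes. The members, the gene lists and the tests were chosen with earlier results of these data known. Alternatives were other scalings (median centring, quantile normalization), filters, a pseudocount of 64, a variance model without a trend, only the arrays of the 2 groups compared, a replicate block and each array left out. A floor at the 40th percentile was added after seeing the data. Promoter windows come from RefSeq, build GRCr8, and motifs were searched on both strands.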

Additional observations from a re-analysis of the deposited data

Results flagged for a closer look

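The change with differentiation differed between the tissues, by the test of that difference in the limma fit over all arrays, for 16 of the 21 tested members. Over all tested genes 23.7% were called higher and 21.2% lower by the same test. The values below are log2 differences of the responses, spinal cord minus brain, and a negative one means a more negative change in spinal cord.

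Among the cadherins the difference was 9.58 for Cdh1, whose readings were dim in 3 groups, -1.64 for Cdh2, -1.99 for Cdh6, -4.80 for Cdh10 and -4.37 for Cdh20. It was 0.67 for Cdh13, whose other probe sets were not called (adjusted p = 0.0533 and 0.323), and 1.33 for Cdh22, where a second probe set gave -3.85. With values under the percentile set to it, Cdh1 gave 3.86, Cdh20 gave -3.28, and Cdh22 gave 0.54 and was no longer called (adjusted p = 0.123).

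Among the protocadherins outside the clusters it was -2.20 for Pcdh9, -3.36 for Pcdh10, -10.71 for Pcdh15, -4.04 for Pcdh17 and -1.92 for Pcdh20, against 3.01 for Pcdh18 and 1.98 for Pcdh19. Pcdh15 gave -5.04 with values under the percentile set to it. Among the clustered ones it was -1.33 for Pcdhb19 and -1.94 for Pcdhb9. Every one of these differences shares its arrays with the comparisons within each tissue, and their cause was not tested.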

How the results depend on the processing

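Of 95 changes of named members between 2 groups or between the responses, 75 were called. None of these turned sign under any alternative run, and 14 lost their call under at least 1. No run exchanged the probe set that stands for a gene. With its other probe set Cdh22 did turn sign in brain (-2.69 to 1.99) and between differentiated cultures (1.85 to -2.93). Its difference of responses turned as well (1.33 to -3.85). Median centring of the arrays turned uncalled changes of Cdh15 in brain (-0.0325) and of Cdh1 between proliferative cultures (-0.18), quantile normalization those of Cdh15 (-0.0606), Cdh1 between proliferative cultures (-0.23) and Pcdh8 in spinal cord (0.0281), a pseudocount of 64 that of Cdh1 between proliferative cultures (-0.0025), and the floor that of Cdh1 in brain (0.19); these genes are dim or near the percentile there. Counting every tested probe set gave 16 lower in spinal cord differentiation in place of 10 and 17 lower for the difference of responses in place of 11, since a gene then counts once per probe set. With each array left out in turn, the change was -0.0633 to 0.32 for Cdh15 in brain, -0.043 to 0.43 for Pcdh19 in brain, -0.30 to 0.12 for Pcdh8 in spinal cord, -0.37 to 0.48 for Cdh1 between proliferative cultures and -0.0935 to 0.28 for Pcdhb22 between differentiated cultures. The number of members lower in spinal cord between differentiated cultures ran from 7 to 12, with 7 without differentiated spinal cord replicate 2. Same-numbered arrays did not deviate together over the tested probe sets, with correlations of -0.08 to 0.048. This cannot tell whether they share a culture or litter, which the labels do not state. With the numbers as a replicate block 101 results held, in that changes kept their sign and call and counts of members stayed close. The other 4 lost their call. In spinal cord these were Pcdhb22 (log2 change 1.04, adjusted p = 0.0518) and Pcdhb9 (-0.88, 0.0617). The others were Pcdhb9 between proliferative cultures (0.91, 0.0586) and Cdh6 between differentiated cultures (-0.86, 0.057). Readings under the 40th percentile limit Cdh1 and Pcdh15 to lower bounds.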
